A study of Homo sapiens with 2 samples.

Results

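The 9 genes described here encode subunits of the COP9 signalosome, and their mRNA was followed in HMC3 cells, an established human microglial line labelled as genotype WT, that had received either rhPOSTN (recombinant human periostin, an integrin ligand of the extracellular matrix) or the vehicle PBS. The members were GPS1, COPS2, COPS3, COPS4, COPS5, COPS6, COPS7A, COPS7B and COPS8, matched by gene name among the 11943 protein-coding genes listed in both tables, and all 9 passed the filter on low values that left 10982 genes for testing. The set was chosen by the values of COPS7A, whose FPKM stood higher after rhPOSTN in these same libraries, so the values of COPS7A are given as a description with no test, and only the other 8 subunits were tested. Both groups were grown in MEM with NEAA, FBS and PS. There were 3 libraries after rhPOSTN and 3 after PBS. No source states that the libraries of a group were separate cultures, so p-values measure the spread between libraries, which may be technical.

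The COP9 signalosome removes the ubiquitin-like protein NEDD8 from cullins, the scaffolds of the cullin-RING ubiquitin ligases. A cullin that carries NEDD8 is active. Its removal lets the exchange factor CAND1 swap the substrate receptor, so the cycle of conjugation and removal sets which proteins are marked for the proteasome, among them the NF-kB inhibitor IkBa. COPS5 carries the metalloprotease site and sits in an MPN domain that pairs with that of COPS6, which has no active site. The remaining subunits are built around PCI domains and form the horseshoe-shaped scaffold. COPS7A and COPS7B are paralogues that take the same place in the complex, so each particle holds one or the other.

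Among the 6 libraries PBS library 3 was unlike the rest. Its correlation with each of them across genes, on the log2 scale, was 0.913 to 0.940, against 0.973 to 0.983 for the 10 pairs it was not part of. Mitochondrially encoded genes held 1.48% of the summed FPKM in it, against 4.96% to 7.78% in the rhPOSTN libraries and 7.02% and 7.36% in PBS libraries 1 and 2. FPKM values (fragments per kilobase of transcript, scaled to each library's mapped fragments) keep no read counts, so the depth behind each value is unknown, and the summed FPKM of 184122 to 195494 per library is no depth. Of the microglial and myeloid markers, CD68 stood at 9.45 to 14.2 FPKM after rhPOSTN and 4.57 to 16.2 FPKM after PBS, and TREM2 at 2.91 to 3.84 FPKM after rhPOSTN and 3.12 to 3.56 FPKM after PBS. CD14 stood at 1.81 to 2.32 FPKM after rhPOSTN and 0.979 to 2.18 FPKM after PBS, and LAPTM5 at 2.06 to 3.14 FPKM after rhPOSTN and 1.05 to 3.10 FPKM after PBS. For CD68 and CD14 the groups overlapped only through PBS library 3. In PBS libraries 1 and 2 CD68 was above every rhPOSTN library (15.4 and 16.2 FPKM). CD14 was below every rhPOSTN library there (1.00 and 0.979 FPKM). Without PBS library 3, 30.6% of all genes had groups that did not overlap. The defining markers AIF1, CSF1R, CX3CR1, P2RY12, TMEM119, ITGAM, PTPRC and SPI1 were not analysed here. Of 11 fibroblast and mesenchymal markers 8 were listed, at 433 to 506 FPKM in sum after rhPOSTN and 458 to 740 FPKM after PBS, with COL1A1 at 324 FPKM in PBS library 3. The 4 epithelial markers summed to 97.6 to 109 FPKM after rhPOSTN and 102 to 150 FPKM after PBS. Nearly all of this was the keratins KRT8 and KRT18. Over the 6 libraries EPCAM stood at only 1.11 to 2.295 FPKM and CDH1 at 1.04 to 2.10 FPKM. No listed marker was at 0. Since these are bulk libraries, fewer cells expressing a gene and less RNA per cell cannot be told apart. Results that rest on PBS library 3 are given with and without it, and the part of its composition in any of them was not tested.

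The promoters of the COPS7 pair are shown because the mRNA levels described next turn on these paralogues. Each run is the 250 bases before the gene's start in RefSeq (GRCh38.p14, plus strand, 5′ to 3′), with motif matches in capitals. COPS7A lies at chr12:6723796-6724045 and COPS7B at chr2:231786195-231786444.
COPS7A: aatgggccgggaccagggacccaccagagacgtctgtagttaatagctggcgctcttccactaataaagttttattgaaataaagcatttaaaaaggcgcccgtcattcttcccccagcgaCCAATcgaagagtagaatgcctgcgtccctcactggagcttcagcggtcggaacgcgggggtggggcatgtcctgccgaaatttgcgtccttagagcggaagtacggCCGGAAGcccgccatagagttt
COPS7B: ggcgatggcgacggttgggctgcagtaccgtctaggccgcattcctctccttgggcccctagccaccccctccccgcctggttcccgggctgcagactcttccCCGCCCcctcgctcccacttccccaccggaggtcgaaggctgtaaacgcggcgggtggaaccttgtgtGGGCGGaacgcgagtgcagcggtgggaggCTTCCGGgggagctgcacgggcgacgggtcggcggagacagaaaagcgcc
Both hold 1 match to the ETS letters CCGGAAG, read on either strand, which 8.52% of 35116 promoters of this length contained. COPS7A also has a CCAAT box (CCAAT, 32.0% of promoters), and COPS7B has 2 GC boxes of the Sp and KLF factors (GGGCGG, 42.6%). The GC content was 54% for COPS7A and 70% for COPS7B, and the median promoter had 58%. Promoters of 8 members were searched, and that of COPS5 was not. Of these 8, 3 held the ETS letters (COPS7A, COPS7B and GPS1), 4 the CCAAT box and 5 the GC box. None of these 8 held the E-box CACGTG (6.35% of promoters), the cAMP response element TGACGTCA (1.65%), the YY1 letters AAGATGGCG (0.652%), the NRF1 letters TGCGCA (6.89%) or the NF-kB kappaB consensus (5.21%). Both strands were searched, the capitals shown do not overlap, and a match is a string of letters and not a measured site.

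COPS7A was the subunit with the largest difference between the groups. COPS7A (ENSG00000111652.9_2, GRCh37 chromosome 12, 6832907 to 6841041, plus strand) stood at 12.3, 14.1 and 14.6 FPKM in the rhPOSTN libraries, against 6.37, 6.11 and 8.67 FPKM in the PBS libraries. Every rhPOSTN library was above every PBS library, and the highest PBS value belonged to library 3. The means were 13.64 ± 1.199 FPKM after rhPOSTN and 7.05 ± 1.41 FPKM after PBS (SD, n = 3 each). The log2(FPKM + 1) difference, rhPOSTN minus PBS, was 0.87 ± 0.16 (SE), and it was 1.01 without PBS library 3. The median difference of all tested genes was 0.06. Over 16 other ways of processing the values the difference of COPS7A ranged from 0.63 to 1.01. No other gene of the tables overlaps COPS7A. These values chose the gene, and nothing is read from them beyond their size.

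**Figure D1:**
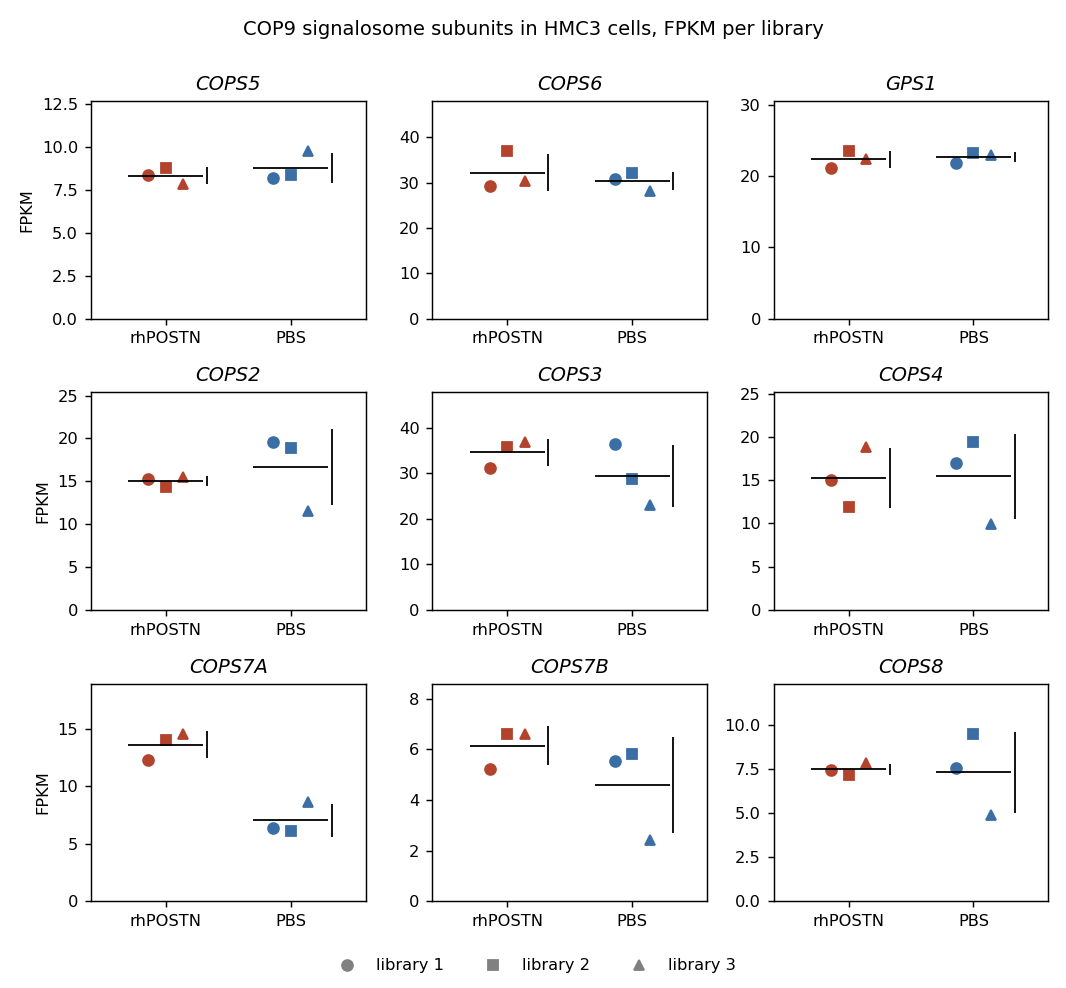
FPKM of each of the 9 subunits in the 3 rhPOSTN libraries (red) and the 3 PBS libraries (blue), with a horizontal line at the group mean and a vertical line of 1 SD on each side. The groups are apart for COPS7A only, which was picked for that, and PBS library 3 (triangle) is the lowest value for COPS2, COPS3, COPS4, COPS6, COPS7B and COPS8.

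The paralogue COPS7B did not change beyond the spread between libraries. COPS7B (ENSG00000144524.17_2, chromosome 2, 232646381 to 232673964, plus strand) stood at 5.24, 6.58 and 6.61 FPKM after rhPOSTN and at 5.52, 5.83 and 2.41 FPKM after PBS. PBS library 3 was far below the other 5 libraries, which lay close together, and the groups overlapped. The difference was 0.42 ± 0.28 (SE, limma adjusted p = 0.951, unadjusted p = 0.187), with a 95% interval of -0.26 to 1.09. Without PBS library 3 it was 0.09, with an interval of -0.20 to 0.38 (limma adjusted p = 0.801). The interval of COPS7B overlaps PDE6D on the opposite strand over 4602 bases, and whether the strand was used in the abundance estimates is not given in the sources used here. PDE6D stood at 13.3 to 16.4 FPKM after rhPOSTN and 11.5 to 15.4 FPKM after PBS. GENCODE 29 adds a processed pseudogene, AC073476.1, that overlaps COPS7B, also on the opposite strand.

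The balance of the pair differed between libraries through both paralogues. Per length, COPS7A exceeded COPS7B 2.35, 2.13 and 2.21 times in the rhPOSTN libraries, against 1.15, 1.05 and 3.596 times in the PBS libraries. PBS libraries 1 and 2 were thus the lowest, but the highest ratio of all was in PBS library 3, where COPS7B was low. COPS7A made up 70.1%, 68.1% and 68.8% of the summed FPKM of the pair after rhPOSTN and 53.6%, 51.2% and 78.2% after PBS. The sum itself was 17.5, 20.6 and 21.2 FPKM after rhPOSTN and 11.9, 11.9 and 11.1 FPKM after PBS, and PBS library 3 did not stand apart in it. These sums and ratios contain COPS7A and are a description. The longest exact run of bases shared by any of the 22 COPS7A and 25 COPS7B transcripts of GENCODE 29 was 34 bases.

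**Figure D2:**
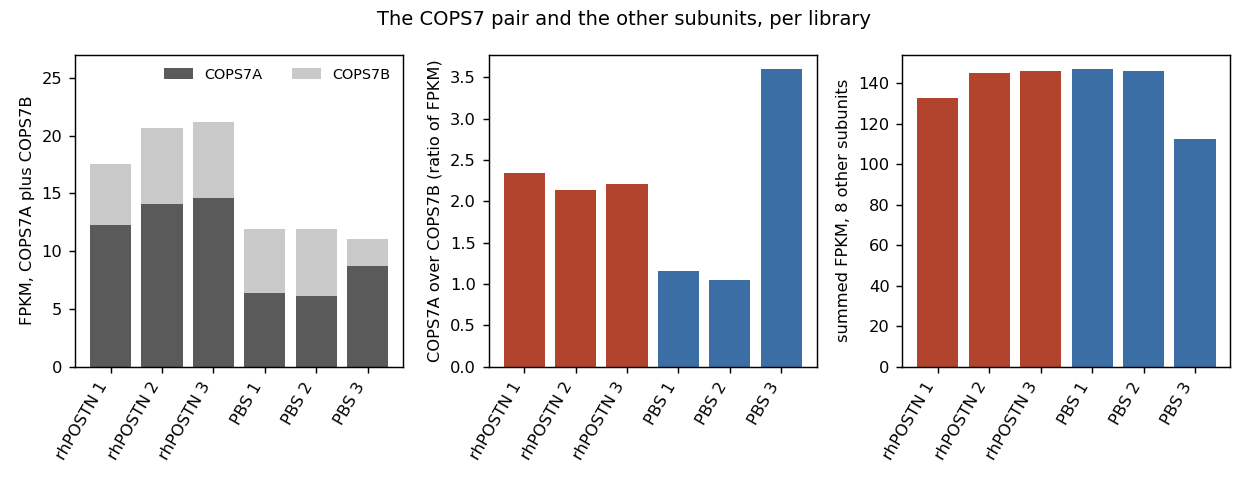
Left, FPKM of COPS7A (dark) stacked with COPS7B (light) in each library. Middle, the ratio of COPS7A to COPS7B. Right, summed FPKM of the 8 subunits other than COPS7A. Red bars are rhPOSTN libraries and blue bars PBS libraries. The stacked level is 17.5 to 21.2 FPKM after rhPOSTN and 11.1 to 11.9 FPKM after PBS, while the ratio is highest, at 3.596, in PBS library 3, where the other subunits sum to 113 FPKM.

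The MPN pair, which holds the catalytic site, did not separate the groups. COPS5 (ENSG00000121022.13_3, chromosome 8, 67955314 to 67996018, minus strand), the NEDD8 protease, stood at 8.35, 8.80 and 7.85 FPKM after rhPOSTN and at 8.22, 8.38 and 9.77 FPKM after PBS. The groups overlapped and PBS library 3 was the highest of the 6, and within the 9 members only COPS5 and COPS7A had their highest PBS value there. The difference was -0.07 ± 0.12 (SE, limma adjusted p = 0.952), with a 95% interval of -0.35 to 0.21. COPS6 (ENSG00000168090.9_2, chromosome 7, 99686577 to 99689823, plus strand), its MPN partner, stood at 29.3, 37.0 and 30.5 FPKM after rhPOSTN and at 30.7, 32.2 and 28.1 FPKM after PBS. One rhPOSTN library was high and the remaining values overlapped. The difference was 0.08 ± 0.13 (SE, limma adjusted p = 0.951), with an interval of -0.23 to 0.39. COPS5 overlaps CSPP1 on the opposite strand over 21358 bases, and GENCODE 29 adds PPP1R42 on its own strand and a pseudogene, COPS5P1, so its values are less certain than those of COPS6, which overlaps no listed gene.

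GPS1 and COPS2 lie next to each other in the scaffold, and COPS2 reaches out to the cullin and its RING partner. GPS1 (ENSG00000169727.12_2, chromosome 17, 80008567 to 80015346, plus strand) was the steadiest subunit, at 21.2, 23.5 and 22.4 FPKM after rhPOSTN and at 21.9, 23.2 and 22.9 FPKM after PBS. Its coefficient of variation over the 6 libraries was 3.95%, and its 95% interval of -0.26 to 0.22 around a difference of -0.02 ± 0.10 (SE, limma adjusted p = 0.978) was the narrowest of the 8. The gene overlaps RFNG on the opposite strand over 1141 bases, and RFNG stood at 8.59, 11.4 and 8.63 FPKM after rhPOSTN and 4.77, 5.55 and 10.1 FPKM after PBS, a pattern GPS1 did not share. COPS2 (ENSG00000166200.14_2, chromosome 15, 49398265 to 49447858, minus strand) stood at 15.3, 14.4 and 15.5 FPKM after rhPOSTN and at 19.5, 18.9 and 11.5 FPKM after PBS. The rhPOSTN libraries lay close together, between PBS library 3 below them and PBS libraries 1 and 2 above. With all libraries the difference was -0.10 ± 0.20 (SE, limma adjusted p = 0.955). Without PBS library 3 it was -0.34, with an interval of -0.52 to -0.15, and every rhPOSTN library was then below both PBS libraries, while 30.6% of all genes had groups that did not overlap in that setting. That difference had an unadjusted p of 0.00434 and did not pass adjustment over all genes (limma adjusted p = 0.428). COPS2 was the only 1 of the 8 at an unadjusted p under 0.05 in that fit, in which 9.55% of all genes were.

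COPS3, COPS4 and COPS8 complete the scaffold, and COPS4 is the subunit that senses a bound NEDD8-cullin and relays this to COPS5. COPS3 (ENSG00000141030.12_2, chromosome 17, 17150134 to 17184607, minus strand) stood at 31.2, 35.7 and 36.8 FPKM after rhPOSTN and at 36.4, 28.7 and 23.0 FPKM after PBS. PBS library 1 lay within the rhPOSTN range, and PBS libraries 2 and 3 lay below it. The difference was 0.25 ± 0.18 (SE, limma adjusted p = 0.951). With 1 library left out it ranged from 0.09 without PBS library 3 to 0.41 without PBS library 1. The latter had an unadjusted p of 0.0455 and an adjusted p of 0.805 in limma, in a fit where 297 of 11007 genes had an unadjusted p under 0.05. COPS4 (ENSG00000138663.8_2, chromosome 4, 83955600 to 83996971, plus strand) stood at 15.0, 11.9 and 18.8 FPKM after rhPOSTN and at 17.0, 19.4 and 9.91 FPKM after PBS. It had the widest spread inside the rhPOSTN group relative to its mean, 15.3 ± 3.47 FPKM (SD, n = 3), and the groups overlapped fully. The difference of 0.01 ± 0.27 (SE, limma adjusted p = 0.993) had an interval of -0.64 to 0.67, and it was -0.26 without PBS library 3 (limma adjusted p = 0.664). COPS8 (ENSG00000198612.10_2, chromosome 2, 237993955 to 238009109, plus strand), the smallest of the PCI subunits, stood at 7.47, 7.17 and 7.84 FPKM after rhPOSTN and at 7.59, 9.52 and 4.93 FPKM after PBS. Its rhPOSTN libraries lay inside the PBS range. The difference was 0.06 ± 0.21 (SE, limma adjusted p = 0.967), and -0.16 without PBS library 3. GENCODE 29 names the pseudogenes COPS8P2 and COPS8P3 and an antisense gene, AC105760.2, that overlaps COPS8, so its values too are less certain than those of COPS6. With libraries scaled by the median of ratios the difference was -0.06 for COPS4 and -0.0002 for COPS8.

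As a set, 0 of the 8 subunits passed an adjusted p of 0.05 in limma, against 0.0182% of all genes (2 of 10982). At an unadjusted p under 0.05 the count was also 0 of 8, against 3.21% of all genes, and in 0 of 8 the groups did not overlap, against 11.7% of all genes. With 8 genes these shares cannot be told from the background. The differences were above 0 for 5 and below 0 for 3, with a median of 0.04 beside 0.06 over all genes. Without PBS library 3 the median was -0.0038 for the subunits and 0.04 for all genes. None of the 8 was called under any of 16 alternatives, where adjusted p in limma ranged from 0.153 for COPS2, with libraries weighted by their fit, to 1.00. The summed FPKM of the 8 was 133, 145 and 146 after rhPOSTN and 147, 146 and 113 after PBS, so PBS libraries 1 and 2 were level with the highest rhPOSTN libraries and PBS library 3 was below all others. The intervals also show what the libraries could not resolve: for COPS2, COPS3, COPS4, COPS7B and COPS8 they reached past 0.5 on the log2 scale in at least 1 direction.

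**Figure D3:**
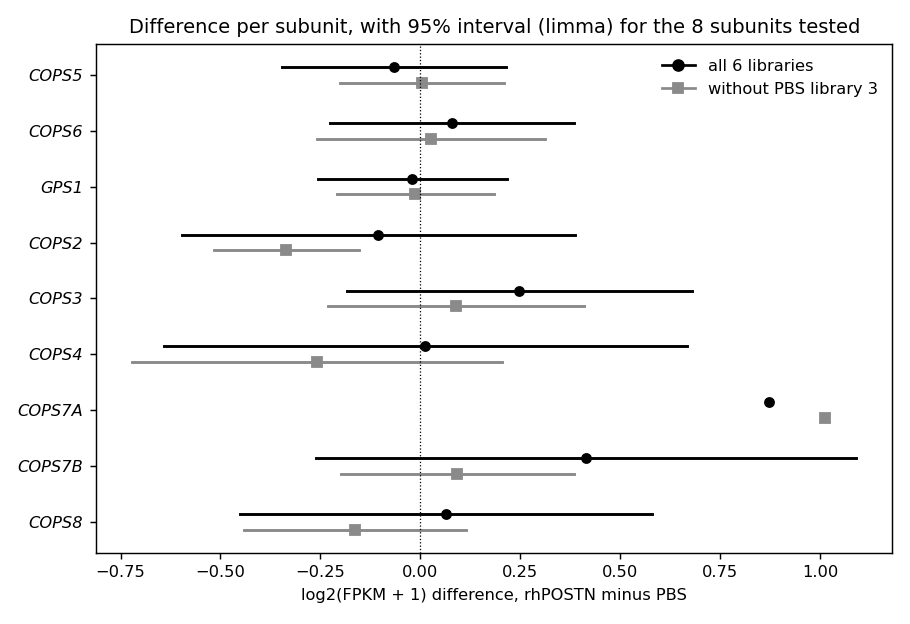
Difference in log2(FPKM + 1), rhPOSTN minus PBS, for each subunit with all 6 libraries (black circles) and without PBS library 3 (grey squares), with limma's 95% intervals as lines. COPS7A, at 0.87 and 1.01, was picked for its values and carries no interval. Of the other intervals, that of COPS2 without PBS library 3, from -0.52 to -0.15, is the one that leaves out 0.

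The place of COPS7A in the order of subunit levels differed between the groups. COPS7A was picked for its higher values after rhPOSTN, so its place and its ratios to other subunits are a description. FPKM is per length, so levels can be set side by side. After rhPOSTN the order of mean levels was COPS3 (34.5 FPKM), COPS6 (32.2), GPS1 (22.4), COPS4 (15.3), COPS2 (15.0), COPS7A (13.6), COPS5 (8.33), COPS8 (7.49) and COPS7B (6.14). COPS3 and COPS6 overlapped, and so did the run of COPS4, COPS2 and COPS7A. After PBS the order was COPS6 (30.4 FPKM), COPS3 (29.4), GPS1 (22.7), COPS2 (16.7), COPS4 (15.4), COPS5 (8.79), COPS8 (7.34), COPS7A (7.05) and COPS7B (4.59). COPS6, COPS3 and GPS1 overlapped in turn, as did COPS2 and COPS4, and COPS5 and COPS8. COPS7A overlapped COPS8, its neighbour above, and was apart from COPS7B below. Relative to the median of the other 8 subunits in the same library, COPS7A stood at 0.810, 1.07 and 0.850 after rhPOSTN and at 0.349, 0.319 and 0.809 after PBS. In PBS library 3 the ratio thus lay just below the rhPOSTN range, with COPS7A at 8.67 FPKM and a median of the others of 10.7 FPKM. Against all tested genes, mean levels ran from the 40.5th percentile for COPS7B to the 89.1st for COPS3.

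How far the other subunits varied together depended on PBS library 3. Over the 6 libraries 17 of 28 pairs among the 8 had a positive Pearson r on the log2 scale, with a median of 0.397, and without PBS library 3 these were 11 pairs with a median of -0.08. With all libraries COPS4 and COPS8 had the highest r, 0.886, and COPS4 and COPS5 the lowest, -0.908. Without PBS library 3 these were 0.729 and -0.791, and GPS1 and COPS6 then had the highest, 0.841. In PBS library 3 the level was below the mean of PBS libraries 1 and 2 by 0.97 on the log2 scale for COPS7B and 0.81 for COPS4, while COPS5 was above it by 0.21 and GPS1 by 0.02. Subunits of the same complex thus spanned more than 1 on the log2 scale in their departure in this one library.

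COPS9, a small acidic subunit that is no member of the set, stood at 13.3, 16.4 and 12.9 FPKM after rhPOSTN and at 11.9, 12.3 and 22.1 FPKM after PBS. PBS library 3 was the highest of all, and PBS libraries 1 and 2 were below every rhPOSTN library, so the groups overlapped only through PBS library 3. Without that library 30.6% of all genes had groups that did not overlap. The difference was -0.07 with all libraries (limma adjusted p = 0.973) and 0.21 without PBS library 3 (limma adjusted p = 0.595).

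The machinery that the complex acts on was measured next, from gene lists. None of its members passed adjustment in limma, where adjusted p ranged from 0.951 to 0.998 over all the lists named below. Of the 12 genes of NEDD8 conjugation 0 had an unadjusted p under 0.05, against 3.21% of all genes, and 1, DCUN1D4, had groups that did not overlap, against 11.7%. The median difference was 0.08. NEDD8 itself stood at 12.3, 16.3 and 14.9 FPKM after rhPOSTN and at 14.1, 13.5 and 14.2 FPKM after PBS, with a difference of 0.04. UBE2M, its main conjugating enzyme, averaged 33.9 ± 6.38 FPKM after rhPOSTN and 32.7 ± 4.96 FPKM after PBS (SD, n = 3 each). Neither gene separated the groups. NEDD8 overlaps GMPR2 on the opposite strand and the read-through gene NEDD8-MDP1 on its own, so its level is uncertain. The smallest unadjusted p values of the list belonged to the ligase co-factors DCUN1D5 (difference -0.33, unadjusted p = 0.0529 in limma) and DCUN1D4 (0.49, unadjusted p = 0.172). DCUN1D4 was at 8.45, 8.35 and 8.69 FPKM after rhPOSTN and at 7.75, 7.94 and 2.93 FPKM after PBS, another gene with PBS library 3 far below the rest. Without that library the difference of DCUN1D4 was 0.10.

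Among the 8 cullins the median difference was 0.12, and in 2 of them the groups did not overlap, against 11.7% of all genes. CUL2, the scaffold of the VHL ligase, stood at 10.3, 10.4 and 11.8 FPKM after rhPOSTN and at 9.31, 9.39 and 5.65 FPKM after PBS (difference 0.40, limma unadjusted p = 0.0858). CUL1, the scaffold of the F-box ligases, stood at 21.9, 22.6 and 20.6 FPKM after rhPOSTN and at 20.2, 19.9 and 15.1 FPKM after PBS (difference 0.24, limma unadjusted p = 0.134). In both the margin between the groups was small beside the distance of PBS library 3 from the other PBS libraries. Without that library the difference was 0.19 for CUL2 and 0.11 for CUL1. The differences of the other cullins were 0.24 for CUL4B, 0.15 for CUL5, 0.09 for CUL9, -0.02 for CUL3, -0.06 for CUL4A and -0.07 for CUL7. Without PBS library 3 these were -0.02, 0.10, 0.22, -0.09, -0.08 and 0.12, in the same order. CUL4A overlaps PCID2 and CUL7 overlaps KLC4, each on the opposite strand.

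Of 7 adaptors and exchange factors 6 were tested (CAND2 was too low), with a median difference of -0.03 and 0 at an unadjusted p under 0.05. CAND1, which binds a cullin once NEDD8 is off, stood at 15.0, 12.6 and 12.7 FPKM after rhPOSTN and at 12.6, 13.2 and 9.58 FPKM after PBS (difference 0.18, limma unadjusted p = 0.276). Without PBS library 3 its difference was 0.05. DDB1, the adaptor of the CUL4 ligases, which overlaps TKFC on the opposite strand, averaged 19.2 ± 1.84 FPKM after rhPOSTN and 22.1 ± 1.73 FPKM after PBS (SD, n = 3 each; difference -0.19). Of 38 substrate receptors 1 had an unadjusted p under 0.05, and 4 had groups that did not overlap, with a median difference of 0.07. That 1 gene was SOCS5, a receptor of the CUL5 ligases, at 8.69, 8.04 and 7.52 FPKM after rhPOSTN and at 6.54, 6.12 and 6.31 FPKM after PBS (difference 0.31, limma unadjusted p = 0.0262, adjusted p = 0.951). Both shares lie near the background, 3.21% at an unadjusted p under 0.05 and 11.7% without overlap.

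Other deneddylases and partners of the complex had a median difference of 0.06 over 10 tested genes, COPS9 among them, and SENP8 was not analysed here. The inositol kinase ITPK1 had a difference of 0.26 (limma unadjusted p = 0.143), and of 0.12 without PBS library 3. CDK5RAP3, a component of the UFM1 conjugation machinery, stood at 16.2, 4.73 and 12.7 FPKM after rhPOSTN and at 11.95, 11.3 and 32.0 FPKM after PBS, so that single libraries lay far out in both groups. The 2 relatives of the COP9 signalosome with the same domain plan, the proteasome lid and the translation factor eIF3, had medians of -0.07 over 9 genes and -0.15 over 10 genes, each with 0 at an unadjusted p under 0.05. The lid genes with the smallest p were SEM1 (difference -0.23) and PSMD13 (-0.27, which overlaps SIRT3), both with their highest value, 8.0 and 35.4 FPKM, in PBS library 3. Without that library their differences were 0.02 and 0.10. In eIF3 the groups did not overlap for 1 of 10 genes, near the 11.7% of all genes. It was EIF3D, at 73.4, 66.0 and 68.6 FPKM after rhPOSTN and at 78.9, 75.1 and 80.3 FPKM after PBS (difference -0.17, limma unadjusted p = 0.135). EIF3C had a difference of -0.20 and shares its sequence with the near-identical EIF3CL, so the split between these copies is uncertain.

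Genes whose proteins are substrates of cullin-RING ligases were read at the mRNA level only. Of 18, 2 had an unadjusted p under 0.05, against 3.21% of all genes, and the same 2 had groups that did not overlap, against 11.7%. The list's median difference was 0.02. NFKBIA, which encodes the NF-kB inhibitor IkBa, stood at 28.0, 33.1 and 28.97 FPKM after rhPOSTN and at 21.2, 16.5 and 23.5 FPKM after PBS. Every rhPOSTN library was above every PBS library, and the difference of 0.55 had an unadjusted p of 0.0108 in limma and an adjusted p of 0.951. CDT1, the replication licensing factor, stood at 33.8, 38.0 and 32.5 FPKM after rhPOSTN and at 28.9, 27.4 and 30.0 FPKM after PBS (difference 0.26, limma unadjusted p = 0.0472, adjusted p = 0.951). Neither passed the adjusted threshold. Without PBS library 3 the list medians were -0.01 for NEDD8 conjugation, 0.10 for the cullins, 0.05 for the receptors, -0.06 for the lid, -0.07 for eIF3 and 0.07 for the substrates.

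**Figure D4:**
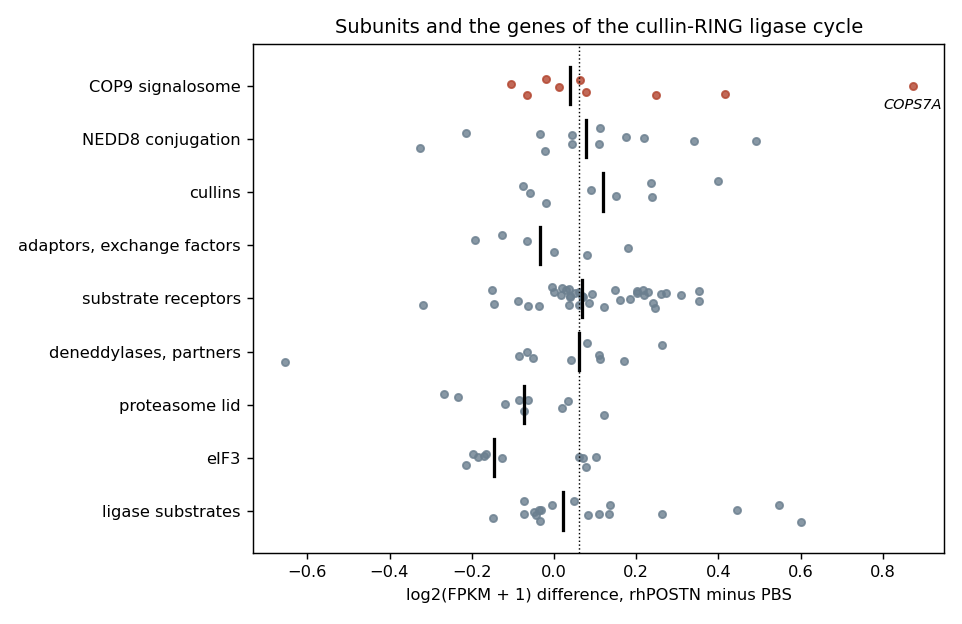
Difference in log2(FPKM + 1), rhPOSTN minus PBS, of each tested gene, in 9 rows. The rows hold the subunits, the ligase-cycle genes, genes whose proteins are ligase substrates, and the related proteasome lid and eIF3, which are not part of that cycle. Points are shifted up or down at random within a row to keep them apart. Thick bars are list medians (for the COP9 signalosome over the 8 subunits other than COPS7A), and the dotted line is the median of all tested genes, 0.06. COPS7A, at 0.87, lies right of every other point, and the list medians run from -0.15 for eIF3 to 0.12 for the cullins.

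The genes whose pattern was most like that of COPS7A over the 6 libraries were not subunits. On log2(FPKM + 1) they were STK36, a kinase of cilia and Hedgehog signalling, with a Pearson r of 0.994, TSN, the RNA- and DNA-binding protein translin, with 0.993, CORO2A, a coronin, with 0.988, TRIM6, a RING ubiquitin ligase, with 0.983, and MANBAL with 0.982. TSN stood at 33.5, 34.7 and 42.7 FPKM after rhPOSTN and at 12.7, 11.5 and 17.6 FPKM after PBS. MANBAL stood at 31.6, 31.7 and 39.8 FPKM after rhPOSTN and at 15.2, 16.6 and 22.3 FPKM after PBS. Both thus held the pattern of COPS7A, with PBS library 3 the highest of its group. STK36, which overlaps RNF25 on the opposite strand, had a much smaller step, 4.31, 4.53 and 4.48 FPKM after rhPOSTN and 3.74, 3.77 and 4.01 FPKM after PBS. These genes were ranked on the libraries that chose COPS7A, so their likeness is a description over 6 points that share a group step. Of the subunits COPS3 was the most like COPS7A, with an r of 0.355 and rank 2766 of 10981 genes, and COPS2 the least, with -0.497 and rank 10300.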

How the data were processed

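RNA-seq was performed on HMC3 cells after rhPOSTN or PBS, with 3 libraries in each group, and groups were taken from the treatment label. Per the methods the authors selected mRNA on oligo(dT) beads (the labels also name rRNA removal) and used the KAPA Stranded kit, Cutadapt, HISAT2, StringTie and Ballgown. The submitters' processing notes name GRCh37. Tool versions and the strand setting were not given in the sources used here. Each deposited value is the FPKM of 1 gene in 1 library. The rhPOSTN table names no unit, so FPKM was taken from the PBS table and the methods. StringTie divides reads among transcripts, so genes that share sequence or overlap can exchange signal.

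FPKM were analysed as log2(FPKM + 1), a scale that understates changes of low genes. The filter kept genes with a mean of at least 1 FPKM in at least 1 group. limma 3.58.1 in R 4.3.3 (eBayes with trend, no covariate) was fitted to all 10982 genes, with Benjamini-Hochberg adjustment at 0.05, and was tested on simulated data. All p-values are two-sided. The alternatives were pseudocounts of 0.1 and 5, no filter, a filter at 5 FPKM, equal sums, median of ratios, no trend, robust hyperparameters, library weights, a replicate block and each library left out. Coordinates are GRCh37 from the tables, except promoters.

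The members, the gene lists and the tests were chosen with earlier results of these data known. Named genes are the members and COPS9, genes overlapping a member, the 5 genes most like COPS7A, NEDD8, CAND1, UBE2M, SENP8 and the cullins, and of each list the tested genes past the adjusted threshold or else the 2 with the smallest unadjusted p. Some genes that this rule or the marker lists name are not reported here.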

Additional observations from a re-analysis of the deposited data

How the results depend on the processing

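Of all tested genes 2 were called higher and 0 lower. The number called higher was 1 with a pseudocount of 0.1, 1 with a filter at 5 FPKM and 23 with library weights, which also called 14 lower. Leaving out 1 library at a time gave 1 to 7 higher and 0 to 4 lower, with the upper ends without PBS library 3. With the library number as a replicate block the number called higher was 1. The correlations of deviations between same-numbered libraries were -0.04, -0.19 and -0.42. PBS library 3 shifts the group mean behind every PBS deviation, so these values cannot decide whether the numbers pair libraries. At an unadjusted p under 0.05 the main analysis split 269 higher and 84 lower, the median of ratios 163 and 155, library weights 1280 and 505, the replicate block 127 and 54, and the analysis without PBS library 3 776 and 272. The difference of COPS7A was 0.63 with a pseudocount of 5, which shrinks low genes by construction, and 0.79 to 1.01 with 1 library left out. The number of other subunits called was 0 throughout. In the differences of these 8 subunits, signs turned in 2 of 16 alternatives for GPS1 and COPS2, 4 for COPS4, 1 for COPS5 and COPS6, 3 for COPS8 and 0 for COPS3 and COPS7B. For COPS8, 1 of these turns, with the median of ratios, was to -0.0002 only. The causes were not tested. Depth is unknown.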

Other observations

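The listed neighbours of COPS7A on chromosome 12, named after their values were seen, differed from one another. PIANP, 22941 bases away, stood at 2.06, 2.36 and 2.64 FPKM after rhPOSTN and at 1.98, 1.98 and 1.03 FPKM after PBS. ZNF384, a zinc finger factor 34169 bases away, stood at 8.07, 8.37 and 8.38 FPKM after rhPOSTN and at 6.43, 7.74 and 2.43 FPKM after PBS. In both, every rhPOSTN library was above every PBS library, while 11.7% of all genes had groups that did not overlap. Neither passed adjustment (limma unadjusted p = 0.0954 for PIANP and 0.118 for ZNF384, adjusted p = 0.951 for both). PBS library 3 was the lowest of its group in both, where for COPS7A it was the highest. MLF2, 16121 bases away on the other side, stood at 35.3, 41.1 and 46.2 FPKM after rhPOSTN and at 40.5, 41.0 and 32.2 FPKM after PBS. PTMS, which encodes parathymosin and lies 33641 bases away, stood at 81.7, 83.9 and 53.2 FPKM after rhPOSTN and at 49.4, 45.0 and 423 FPKM after PBS, so PBS library 3 was far above the other 5 libraries there.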
